A study of Mus musculus with 7 samples.

Results

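Binding of the transcription factor Zfp281 was compared between mouse embryonic stem cells (ESCs) and mouse extraembryonic endoderm stem cells (XENs) through the peak lists of their chromatin immunoprecipitation sequencing (ChIP-seq) libraries. A peak is a stretch of genome that the authors called as enriched in the immunoprecipitated DNA, and its summit is the position of highest signal. All Zfp281 peaks on chromosomes 1 to 19 and X were taken, which gave 52266 peaks from ESCs and 3449 from XENs, or 55715 of the 63934 peaks in all 5 deposited lists. Another 30 ESC peaks lay on other sequences of the assembly and were left out.

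The study mapped Zfp281 and Suz12 in both cell types, and H3K27me3 in XENs, beside input DNA of each, in 7 samples of 1 library each. Both cell types came from strain 129S1 mice and carried no stated mutation or treatment. ESCs grew without feeder cells in serum with leukemia inhibitory factor (LIF), and XENs grew without feeder cells in serum medium conditioned by mouse embryonic fibroblasts (MEF). The same Abcam antibody, ab101318, was used against Zfp281 in both. Cell type, culture medium and library were therefore changed together and cannot be told apart, and fewer true sites cannot be told apart from a weaker immunoprecipitation. With 1 library per group there is no replicate spread and no test, and every interval below is a 95% Wilson interval, which covers counting error only and treats neighbouring peaks as independent. Peak lists hold no expression values, so the identity of the cells could not be checked against their markers.

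Zfp281 is a zinc finger protein that binds G-rich DNA and acts in ESCs both as an activator and as a repressor of genes, in part through the corepressor complex NuRD. It belongs to the protein network around Nanog, Oct4 and Sox2 that holds ESCs in the pluripotent state and adjusts their exit from it. XENs stand for the primitive endoderm, the early lineage that forms the yolk sac and that is separated from the pluripotent epiblast in the blastocyst. Suz12 is a core subunit of Polycomb repressive complex 2, which keeps developmental genes silent in ESCs by methylating histone H3.

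In the full lists most XEN peaks lay at ESC peaks, while few ESC peaks had an XEN peak. An overlap of at least 1 bp was found for 5.10% of ESC peaks (2666 of 52266, 4.92 to 5.29%) and for 80.8% of XEN peaks (2787 of 3449, 79.5 to 82.1%). Both shares depended on the length of the ESC list. With only as many ESC peaks as XEN peaks, those of highest score, 33.0% of XEN peaks and 30.3% of ESC peaks overlapped. An ESC peak with an XEN peak is called kept below, and the other 49600 are called lost. An XEN peak without an ESC peak is called gained, and there were 662 of these, or 19.2% (17.9 to 20.5%). The words describe the lists, not an event in time. The peaks of ESCs covered 39.8 Mb and those of XENs 1.52 Mb.

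The libraries behind the lists differed little in tags per fragment length. Tags spread evenly over the genome would give 3.01 tags per fragment length in ESCs and 2.89 in XENs. The fragment lengths were 302 bp in ESCs and 257 bp in XENs, as read from the narrowest peak of each list. The XEN value is for a shorter length, so per bp the XEN library was somewhat the deeper. At their summits ESC peaks held 10 to 602 tags with a median of 25, and XEN peaks 15 to 346 with a median of 33. The control level under the summit, in tags, exceeded the genome-wide background at 56.7% of ESC peaks and at 81.9% of XEN peaks. On chromosomes 1 and 8 the median control level under ESC peaks was 4.48 and 4.51 tags, and on the other 18 it was 3.01 to 3.31. The part of the control level in the overlaps was not tested, and without these 2 chromosomes 5.20% of ESC peaks were kept and 80.7% of XEN peaks met an ESC peak.

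Positions are given in mouse build mm9, the build named in the submitters' processing notes. What genes lie at these positions, and which sequences, was not analysed here.

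Where both cell types had a peak, the XEN peak usually sat inside a wider ESC peak. There were 2531 loci at which 1 ESC peak met 1 XEN peak and neither met another. The ESC peak was the wider in 2400 of them (94.8%), and the XEN peak lay wholly inside it in 2156 (85.2%). Median widths were 1062 bp in ESCs and 393 bp in XENs, and the ESC peak was 2.53 times as wide at the median locus (quartiles 1.73 and 3.84). The summits were 52 bp apart at the median (quartiles 21 and 106 bp), within 50 bp at 49.3% of loci and over 500 bp apart at 5.81%. Order by strength carried over weakly. The rank correlation of the authors' scores of the 2 lists across these loci was 0.247 (Spearman), given as a description, since loci of 1 library are not replicates.

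A broad ESC peak could hold several separate XEN peaks. There were 111 ESC peaks that covered 2 XEN peaks each and 8 that covered 3 or more. The largest number was 4, reached by chr5:143577841-143585706, 7866 bp wide, by chr10:17440888-17445744, 4857 bp wide, and by chr11:95864356-95869625, 5270 bp wide. The reverse was rare, since 9 XEN peaks spanned 2 ESC peaks each and none spanned more.

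The strongest ESC sites were divided between kept and lost. Of the 100 ESC peaks with the highest score, 57 were kept, and of the first 1000, 446 were (44.6%, 41.5 to 47.7%). Of the first 5000, 25.6% were kept (24.4 to 26.8%). The 554 lost peaks among the first 1000 each had at least 122 tags at the summit, with a median of 158. Few of them lay just beside XEN sites, as was so for all lost peaks. Their median distance to the nearest XEN summit was 140 kb, 46 of them (8.30%) had one within 10 kb, and 49 (8.84%) had none within 1 Mb. For all 49600 lost peaks the median was 162 kb, with 7.18% within 10 kb. From the other side, 93 of the 100 strongest XEN peaks and 87.6% (84.4 to 90.2%) of the strongest 500 lay at an ESC peak.

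The 5 kept ESC peaks with the highest score ranked between 3 and 11 in the ESC list and had 306 to 322 tags each. They were chr6:136418770-136420007 with a 72.0-fold enrichment in the authors' list, chr17:25410179-25411611 with 76.5-fold, chr7:29952638-29955428 with 64.2-fold, chr11:4997916-5000219 with 58.6-fold and chr11:69179961-69183013 with 66.6-fold. In the first 4 the XEN summit lay 50 to 134 bp from the ESC summit. In the fifth it lay 1885 bp away, inside a peak of 3053 bp that also overlapped a Suz12 peak of ESCs. The other 4 overlapped no Suz12 peak.

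The 5 lost ESC peaks with the highest score were as strong by tags as the kept ones. They were chr11:95850633-95854060 (326 tags, rank 1 in the ESC list), chr15:38007249-38009133 (312 tags), chr8:108216241-108218786 (375 tags), chr4:150051218-150052937 (309 tags) and chr17:27691123-27696645 (344 tags). Their ranks ran from 1 to 7, and none overlapped a Suz12 peak. The nearest XEN summit lay 8.63 kb from the peak on chromosome 11, 14.2 kb from that on chromosome 8, 70.4 kb from that on chromosome 4, 179 kb from that on chromosome 17 and 375 kb from that on chromosome 15.

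The strongest XEN peaks that were kept did not all sit at strong ESC peaks. The first 5 were chr3:95469709-95470533 (186 tags), chr9:59504392-59505541 (170 tags), chr16:21396253-21396888 (188 tags), chr17:27871265-27871988 (164 tags) and chr6:113640238-113641089 (148 tags). Their summits lay 11 to 73 bp from the ESC summit. The ESC peak on chromosome 9 ranked 57 in its list, that on chromosome 6 ranked 3269 and that on chromosome 3 ranked 4500. The ESC peak on chromosome 16 ranked 14928, with an 8.35-fold enrichment. On chromosome 17 it ranked 27315, below the median of the list, and held 22 tags where the XEN peak held 164. These last are sites at which XENs were among the most strongly bound of their list and ESCs were not.

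Gained peaks were weaker than kept ones only by a small margin. Their median was 31 tags and a 5.75-fold enrichment in the authors' XEN list, against 33 tags and 6.41-fold for kept XEN peaks, and their median width was 370 against 394 bp. The control level had the same median, 3.08 scaled tags, in both. The 5 gained peaks with the highest score were chr17:21716087-21717134 (170 tags, 34.2-fold), chr6:42394412-42395059 (135 tags, 27.2-fold), chr6:31537086-31538053 (124 tags, 23.8-fold), chr17:12861130-12862313 (139 tags, 14.3-fold) and chrX:100846963-100847720 (102 tags, 17.3-fold). The first ranked 2 in the whole XEN list and the others between 11 and 54. The nearest ESC summit lay 8.11 to 72.8 kb away, and none overlapped a Suz12 peak of ESCs. The fourth lay over a raised control level of 7.00 scaled tags, the other 4 over 3.08 to 3.85.

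Most gained peaks lay close to ESC sites without touching one. The median distance from a gained summit to the nearest ESC summit was 9.69 kb (quartiles 3.39 and 25.6 kb), with 33.4% within 5 kb, 51.2% within 10 kb and 95.3% within 100 kb. It was 18662.5 bp in the higher-scoring 50% of each list, and 2505.5 bp when gained meant no ESC summit within 200 bp, which adds overlapping peaks with distant summits. The farthest lay 837 kb away. ESC summits are dense, which by itself brings any position close to one. The median distance from a lost ESC summit to the nearest XEN summit was 162 kb, with 7.18% within 10 kb. The median enrichment differed little between near and far gained peaks, at 5.58-fold for the 221 within 5 kb, 5.89-fold for the 372 at 5 to 50 kb and 5.90-fold for the 69 beyond 50 kb.

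**Figure D1:**
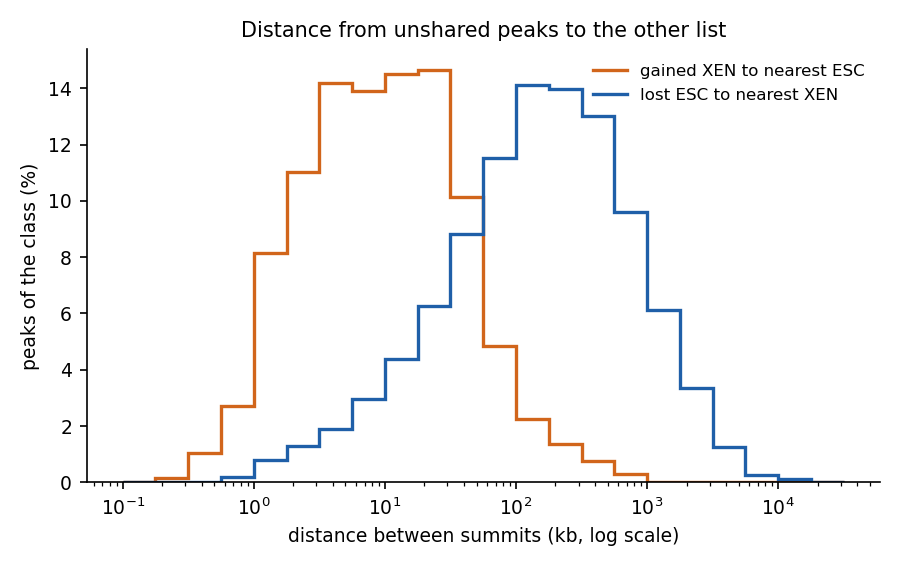
Distance in kb, on a log scale, from each gained XEN summit to the nearest ESC summit (orange) and from each lost ESC summit to the nearest XEN summit (blue), as a percentage of the peaks of that class in each distance bin. The medians are 9.69 kb for gained and 162 kb for lost peaks, and the lists differ in length (52266 and 3449 peaks).

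Gained peaks rarely came in groups. With gained summits at most 50 kb apart joined into groups, 547 stood alone, 46 groups had 2 and 7 groups had 3 or more, with 23 peaks in all. Groups of 4 lay at chr3:133129795-133151489, 21.7 kb long with 1 ESC peak inside, and at chr8:35789225-35844041, 54.8 kb long with 5 ESC peaks inside. Their members were of middling strength, 3.92 to 7.09-fold on chromosome 3 and 4.38 to 6.56-fold on chromosome 8. At chr14:102204220-102253414 a group of 3 had no ESC peak inside its 49.2 kb.

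Peaks of ESCs lay much closer to one another than those of XENs, and most of this went with the length of the list. Neighbouring summits were 12.7 kb apart at the median in ESCs (quartiles 4.19 and 37.4 kb) and 154 kb apart in XENs (31.9 and 592 kb). When the ESC list was cut to the 3449 peaks with the highest score, as many as in XENs, its median spacing was 173 kb. At this equal length more of the XEN peaks had a close neighbour. A neighbour within 10 kb was found for 23.6% of XEN peaks (22.2 to 25.1%) and for 12.6% of the equally many ESC peaks (11.5 to 13.7%), against 63.8% in the full ESC list. Gaps of at most 1 kb made up 2.33% of XEN gaps and 0.0292% of those between the equally many ESC peaks. At long range the 2 lists were alike, with 636 and 596 gaps over 1 Mb. Peak width limits short gaps, since peaks of a list do not overlap. In the highest score decile of ESC peaks the median width was 1477 bp for kept and 1338 bp for lost peaks, against 390 bp in XENs. The smallest gap was 984 bp in the cut ESC list and 420 bp in XENs. The cut by score also removed weak ESC neighbours, while the XEN list stayed whole. The part of width and of the cut in the difference was not tested.

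**Figure D2:**
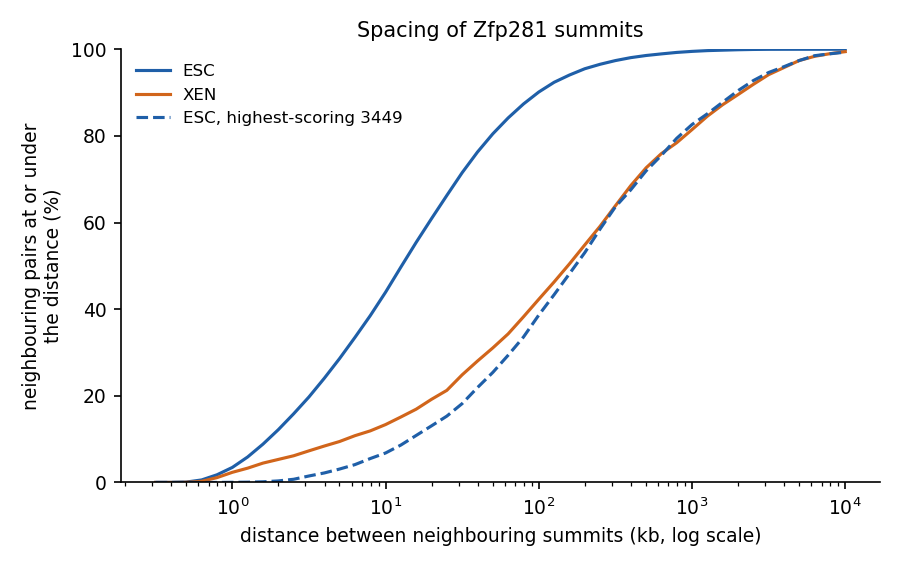
Percentage of neighbouring summit pairs at or under a given distance in kb, on a log scale, for all ESC peaks (solid blue), all XEN peaks (orange) and as many ESC peaks of highest score as there are XEN peaks (dashed blue). The full ESC curve lies far to the left (median 12.7 kb), and the XEN curve lies above the dashed curve below about 100 kb, with 13.4% against 6.79% of gaps within 10 kb.

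Some of the close XEN pairs lay inside a single broad ESC peak. Of the 458 pairs of neighbouring XEN summits at most 10 kb apart, 130 (28.4%) lay in the same ESC peak, and of the 80 pairs at most 1 kb apart, 64 did. Another 224 pairs (48.9%) lay in different ESC peaks, 85 joined a kept with a gained peak, and 19 were both gained. Merging peaks less than 500 bp apart left 20.7% of XEN peaks with a neighbour within 10 kb.

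The largest group of XEN peaks, in which each summit was at most 10 kb from the next, held 8 peaks in 14.9 kb at chr11:95864903-95879825. All 8 were kept, over 4 ESC peaks, and the first of those ESC peaks, chr11:95864356-95869625, had 200 tags in ESCs and covered 4 of them. The XEN peaks held 21 to 56 tags each, with a best rank of 925. The lost peak that ranked 1 among all ESC peaks, with 326 tags, lay before this group, with its summit at 7.75 kb of the window drawn and the first XEN summit of the group at 20.6 kb. Its nearest XEN summit, 8.63 kb away, lay on the other side and was not of the group. No Suz12 peak of ESCs lay in the group. One chromosomal neighbourhood thus held both a broad site split into 4 XEN peaks and the strongest site of ESCs with no XEN peak.

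Other XEN groups were smaller. There were 6 peaks at chr15:101844913-101859306, at chr16:30039287-30069064 and at chr17:29574476-29601747, and of these 18 peaks 1, on chromosome 16, was gained. A group of 5 at chr4:133567469-133576309 was the strongest of those listed, with 7.82 to 30.4-fold enrichment and a best rank of 13. In all, 357 groups had 2 or more XEN peaks and 8 had 5 or more, which held 1.33% of XEN peaks.

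In ESCs 10394 groups had 2 or more peaks, 1642 had 5 or more and 228 had 10 or more, and those of 5 or more held 22.1% of all ESC peaks. The largest had 26 peaks and occurred at both chr6:52096021-52185506 and chr11:97517289-97606623, over 89.5 and 89.3 kb. The group on chromosome 6 was also covered by 13 Suz12 peaks, the group on chromosome 11 by none. On chromosome 6, 1 of the 26 peaks was kept, chr6:52108064-52110981 with 109 tags, while the group's strongest by rank, chr6:52124977-52127416 with 206 tags, was lost. On chromosome 11, 3 were kept, and these included the strongest, chr11:97522782-97526506 with 217 tags and rank 94. Groups of 23 peaks at chr4:148178361-148283162 and chr8:123008934-123105024 kept none, and a group of 24 at chr3:89109754-89200870 kept 4. With 5.10% of all ESC peaks kept, counts of 0 or 1 in groups of this size are close to the overall share.

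**Figure D3:**
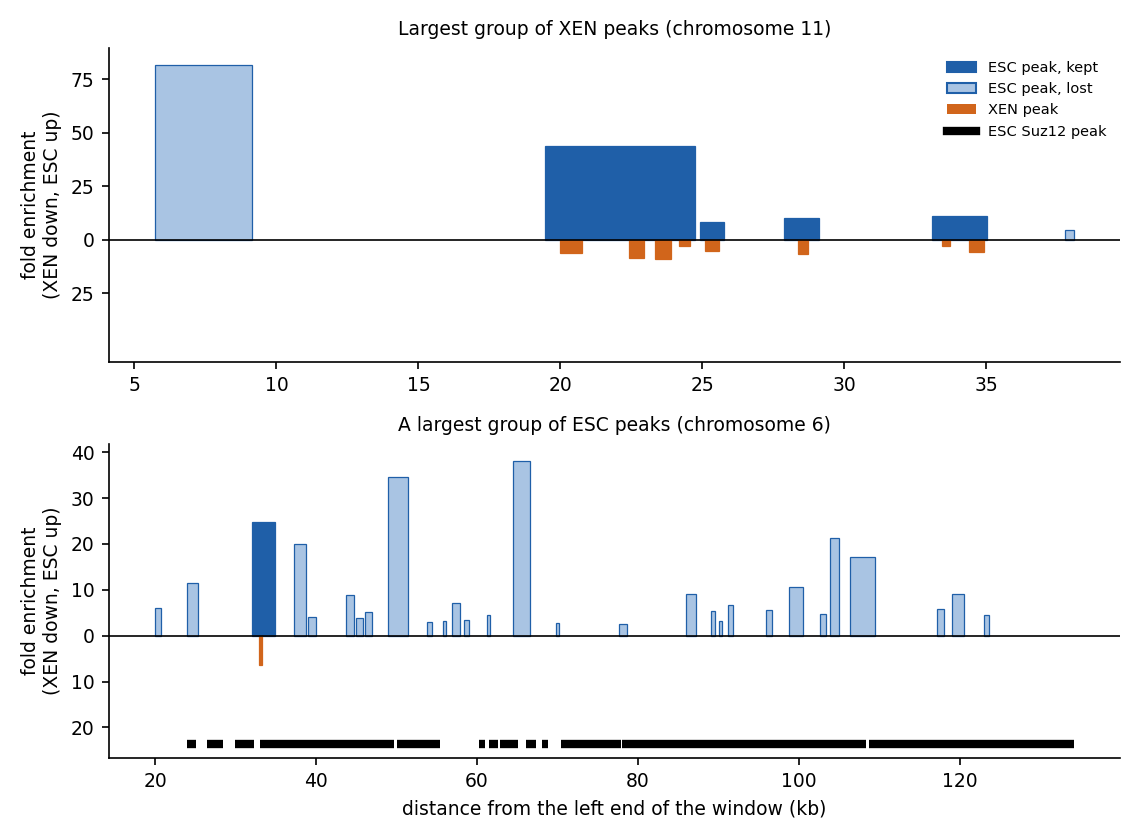
Zfp281 peaks around the largest XEN group (top, chromosome 11) and around a largest ESC group (bottom, chromosome 6), drawn to scale by distance in kb from the left end of the window. Bar height is the authors' fold enrichment, upward for ESC peaks (dark kept, pale lost) and downward for XEN peaks, which is not comparable between the lists; black bars are Suz12 peaks of ESCs. The top window holds 8 XEN peaks over 4 ESC peaks beside the 81.5-fold lost peak, and the bottom one holds 1 XEN peak.

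Most groups had no kept peak, as 94.9% of all ESC peaks were lost, and in groups with both kinds the member of highest score was often among the kept. Of the 10394 ESC groups, 8865 (85.3%) had no kept peak, 33 had only kept peaks and 1496 had both. Pairs had no kept peak in 89.9% of cases, which is near what the overall share gives, and groups of 6 or more in 66.9%. At an unchanged overall share larger groups are less often without a kept peak, so this fall does not by itself set large groups apart. In the 1496 mixed groups the member with the highest score was kept in 1097 (73.3%), while 27.7% of their peaks were kept. The highest-scoring member was kept in 80.5% of mixed pairs and in 74.9% of mixed groups of 3. It was kept in 70.1% of those of 4 to 5 and in 64.3% of those of 6 or more. The share of all their peaks kept fell faster, from 50% in mixed pairs, fixed by definition, to 36.7%, 28.1% and 17.2%. The score that ranks the members is that of the ESC library alone.

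The number of neighbours of an ESC peak moved its kept share little. Peaks with no other ESC summit within 10 kb were kept in 4.29% of cases (4.01 to 4.59%), those with 1 in 5.27% (4.92 to 5.65%), those with 3 in 6.22% (5.59 to 6.91%) and those with 5 or more in 5.62% (4.70 to 6.71%). Strength set a far wider range. With ESC peaks divided by score into 3 classes of equal size, the share in the top class was 11.2% with no neighbour and 12.4% with 5 or more, and in the bottom class 0.890% and 0.604%.

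**Figure D4:**
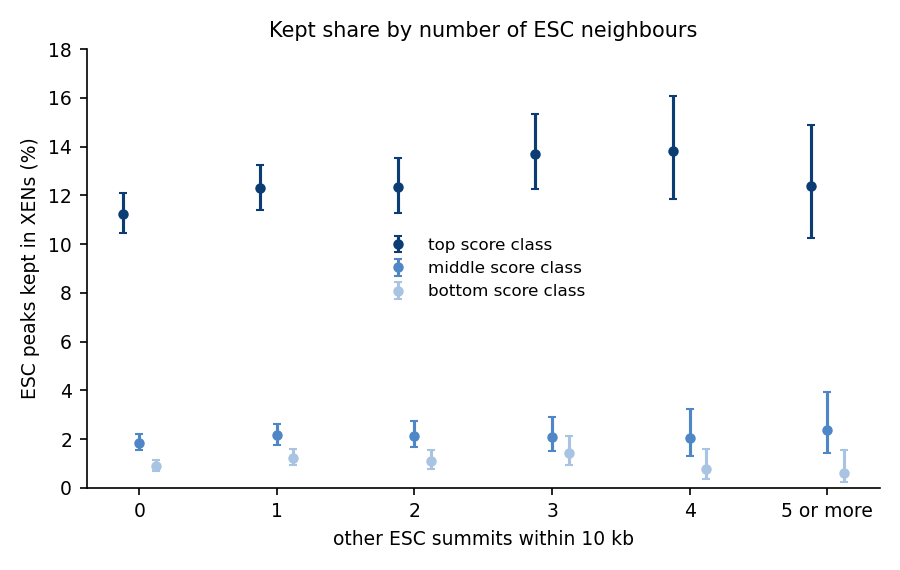
Percentage of ESC peaks kept in XENs against the number of other ESC summits within 10 kb, for the top, middle and bottom score class of ESC peaks. Points are shares and bars are 95% Wilson intervals. The top class runs from 11.2 to 13.8%, the other 2 stay below 2.5%.

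Whether the next peak along the chromosome was kept went with a larger difference than how many there were. Each ESC peak was read with each of its immediate neighbours, so a pair was counted from both sides and the intervals here are too narrow. For neighbours 2 to 10 kb apart, a peak was kept in 14.0% of cases (12.6 to 15.6%) beside a kept neighbour and in 5.55% (5.31 to 5.81%) beside a lost one. Within the top score class the shares were 27.5% (24.6 to 30.6%) and 12.2% (11.6 to 12.8%). At 10 to 50 kb the shares were 19.9% (17.2 to 23.0%) and 11.7% (11.1 to 12.3%) in that class, and at 50 to 200 kb they were 19.3% (14.7 to 24.9%) and 10.8% (9.87 to 11.7%). At over 200 kb they were 21.1% (11.1 to 36.3%, 8 of 38) and 8.40% (6.88 to 10.2%). The difference was thus larger at 2 to 10 kb than at 10 to 200 kb. At up to 2 kb the top-class shares were 26.7% and 10.4%. Over all peaks the shares were 10.2% and 4.83% at 10 to 50 kb and 8.71% and 4.03% at 50 to 200 kb. At over 200 kb they were 8% (4.40 to 14.1%, 10 of 125) and 2.52% (2.10 to 3.01%). The intervals did not overlap at over 200 kb in the top class or over all peaks. A steady fade with distance was therefore not seen. Too few peaks lay beside a kept neighbour at over 200 kb to compare the size of the difference with that at shorter distances. Score still varied within the top class, where the kept share was 4.94% in score decile 8 and 24.9% in decile 10, the highest. The score of the neighbour and the chromosome were not held fixed either. Their part in these differences was not tested. A single XEN peak joined 9 pairs of neighbouring ESC peaks.

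Overlap with Suz12 was close to equal in kept and lost ESC peaks over the whole list as called, and lower in kept than in lost peaks among strong sites, a difference for which there is no test. Of kept ESC peaks 7.50% (200 peaks, 6.56 to 8.56%) overlapped a Suz12 peak of ESCs, and of lost ones 7.79% (3863 peaks, 7.56 to 8.03%). The higher-scoring 50% of each list gave 4.44% of kept (3.46 to 5.67%) and 7.10% of lost peaks (6.79 to 7.43%), and an overlap of 50% of the shorter peak turned the order, with 5.99% of kept and 5.84% of lost peaks. Kept peaks are the stronger class, with a median of 67 tags against 24, and strong peaks overlapped Suz12 more often. Both were therefore also set side by side within score classes. In the top score class 8.27% of kept peaks (7.17 to 9.51%) and 11.9% of lost peaks (11.4 to 12.4%) lay at Suz12. Score still varied within this class. In score decile 10, the highest, 8.90% of kept and 15.7% of lost peaks lay at Suz12, and in decile 9 7.54% and 12.7%. Decile 3 went the other way, with 6.90% and 5.07%. Turned round, ESC sites of the top class at a Suz12 peak were kept in 8.84% of cases (7.67 to 10.2%) and those away from one in 12.7% (12.1 to 13.2%). In the middle class 4.52% of kept (2.80 to 7.22%) and 6.32% of lost peaks (5.96 to 6.69%) lay at Suz12, and in the bottom class 4.37% (2.23 to 8.39%) and 5.63% (5.30 to 5.99%), with intervals that overlap. Among gained XEN peaks 6 of 662 (0.906%) overlapped a Suz12 peak of ESCs, against 171 of the kept XEN peaks (6.14%). By definition kept XEN peaks lie at ESC Zfp281 peaks, of which 7.77% overlapped Suz12, and gained ones lie away from them. This contrast therefore partly restates how the classes were made.

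The kept share differed between chromosomes, with chromosome 4 lowest and X highest. On chromosome 4, 99 of 3791 ESC peaks were kept, or 2.61% (2.15 to 3.17%). On X, 82 of 732 were kept, or 11.2% (9.12 to 13.7%). The other 18 chromosomes ran from 3.43% to 7.01%. If each ESC peak had been kept at the rate of its score decile over all chromosomes, chromosome 4 would have had 197 kept peaks and X 34.9, so that the observed numbers were 0.502 and 2.35 times those, against 0.726 to 1.47 times on the others. ESC peaks outnumbered XEN peaks by 31.1 to 1 on chromosome 4 and by 6.91 to 1 on X. In the bottom score class 0.458% (0.210 to 0.995%, 6 peaks) were kept on chromosome 4, 2.60% (1.12 to 5.95%, 5 peaks) on X and 1.08% (0.931 to 1.25%) on the other 18 together. The intervals of chromosome 4 and of X each overlap that of the other 18, but not each other. In the middle class these shares were 0.818% (0.445 to 1.50%), 6.62% (4.23 to 10.2%) and 2.05% (1.84 to 2.28%). In the top class 6.60% (5.35 to 8.11%) were kept on chromosome 4, 22.0% (17.5 to 27.4%) on X and 12.5% (11.99 to 13.02%) on the other 18 chromosomes together.

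Both differences ran along most of their chromosome. In windows of 20 Mb the ratio of observed kept peaks to those given by score was below 1 in all 8 windows of chromosome 4, from 0 to 0.862, and above 1 in all 9 windows of X, from 1.28 to 3.70. The windows of X held 25 to 155 ESC peaks, so single values are uncertain.

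The control level under XEN peaks moved with the chromosomes too. Its median was 2.36 scaled tags on chromosome 4, which is the genome-wide background of that list in this unit and the lowest of all chromosomes. It was 2.83 on X and 2.57 to 4.0 on the other 18. Across the 19 autosomes the ratio of observed to score-given kept peaks and this median had a rank correlation of 0.542 (Spearman; Pearson 0.610), and with X included it was 0.376 (Pearson 0.209). Chromosomes of 1 library pair are not replicates, and these values are a description. The part of the control level in the kept shares was not tested.

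**Figure D5:**
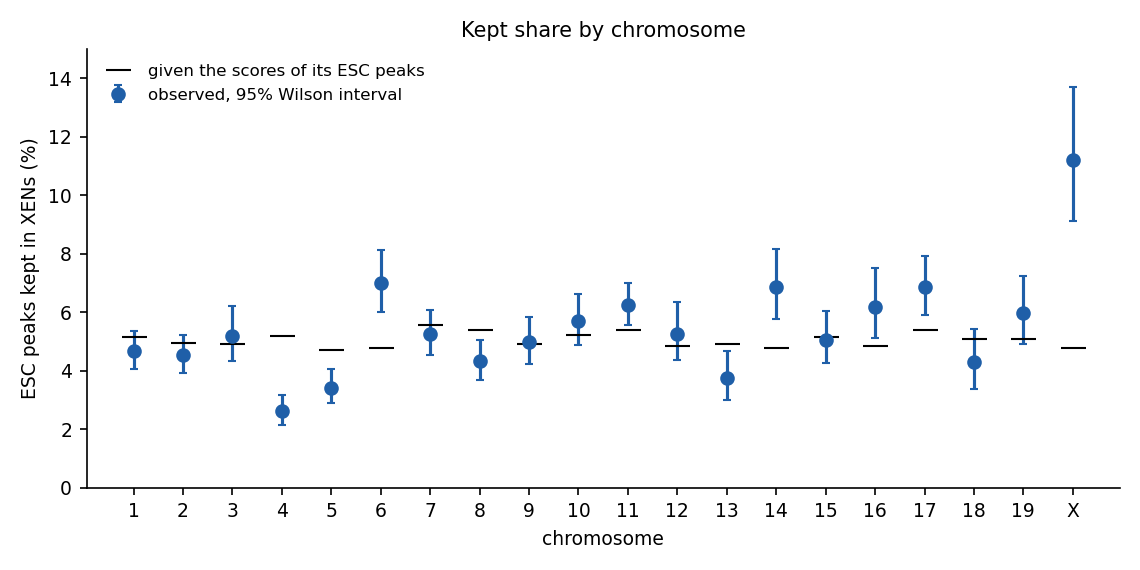
Percentage of ESC peaks kept in XENs on each chromosome (points, with 95% Wilson intervals) and the percentage given by the scores of its ESC peaks (black dashes). The dashes are nearly level, while chromosome 4 lies below at 2.61% and X above at 11.2%.

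Long stretches of chromosome 4 with many ESC sites had no XEN peak at all. Between neighbouring XEN summits at 150122594 and 154499608 on chromosome 4, a span of 4.38 Mb, there were 290 ESC peaks, all lost, 3 of them among the strongest 1000. The next stretches by number held 219 lost peaks on chromosome 5, between 115608855 and 118447643, and 203 and 189 on chromosome 4, between 139155203 and 140840176 and between 123230115 and 125879413. In all, 25 stretches between neighbouring XEN summits held at least 100 lost ESC peaks, 8 of them on chromosome 4 and 3 on chromosome 5. The longest stretch without an XEN summit spanned 22.6 Mb of chromosome 14, between 77135093 and 99723940, and held 116 lost ESC peaks. Gained peaks made up 15.0 to 24.8% of the XEN peaks of each chromosome, and on chromosome 4 they were 19 of 122.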

How the data were processed

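Zfp281 ChIP-seq was done in 1 ESC and 1 XEN library, sequenced as paired-end reads, and samples were grouped by their titles. Per the submitters' processing notes, FastQC 0.10.1, Bowtie2 2.3.4 and SAMtools 0.1.19 were used with build mm9. The peak caller, its threshold and its control are not given in the sources used here. Each deposited list, called from 1 library, has positions, a summit, a score, a fold enrichment (a ratio over the expected level) and -log10 p- and q-values, all as the authors' caller gave them. Fold and score were used within a list only.

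Overlaps, summit distances and groups were computed with Python 3.11.15, numpy 2.4.6, pandas 2.3.3 and scipy 1.17.1, checked against bedtools for the overlaps and tested on simulated peaks. The 3 score classes and the deciles were taken within the ESC list. Tags and control level at each summit were recovered from fold, taken as scaled tags plus 1 over control plus 1, and the Poisson tail. Every peak matched a whole number of tags to within 0.01 of its -log10 p. The ESC scale was 1 and the XEN scale 0.815. Tags of XENs are counted before scaling, and their control levels are given after it.

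The peaks named are the 5 of highest score among kept, lost and gained peaks and the densest groups of each list. Stretches, gained groups, other single peaks and chromosomes 4 and X were singled out after their values were seen. The comparison, its lists and its rules were chosen with earlier results of these data known. Alternatives were other overlap rules, the higher-scoring 50% of each list, equal list lengths, merged peaks and left-out chromosomes. Without an mm9 genome or annotation in use, and with no conversion of coordinates, 5 planned results on start sites, genes and a G-rich motif, with their gene lists, were not run. XEN Suz12 and H3K27me3 lists were not analysed.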

Additional observations from a re-analysis of the deposited data

How the results depend on the processing

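Of 41 alternatives for 12 results, 16 stayed within the interval of the reported value and 25 moved outside it. No paired analysis was possible because each cell type had a single Zfp281 library. The 5 planned results that need genes, start sites or sequence were not run, with all their alternatives. For shared sites, requiring summits within 200 bp gave 67.9% of XEN peaks and 4.48% of ESC peaks, and equal list lengths, which drop the weaker ESC peaks, gave 33.0% and 30.3%. The higher-scoring 50% of each list gave 77.2% of XEN peaks, merging gave 5.39% of ESC peaks, and leaving out chromosome 4 gave 5.30%.

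Median ESC spacing was 24093 bp with the higher-scoring 50%, 172618 bp at equal length and 14589 bp after merging, and the share of ESC peaks with a neighbour within 10 kb was 47.1%, 12.6% and 59.3%. In XENs the higher-scoring 50% gave a spacing of 361445 bp and a neighbour share of 14.9%, and merging a share of 20.7%. Fewer peaks lengthen spacing by construction. The median distance of gained peaks to an ESC summit was 18662.5 bp with the higher-scoring 50%, and 2505.5 bp under the summit rule, which counts overlapping peaks with distant summits as gained. An overlap of 50% put 5.84% of lost and 5.99% of kept peaks at Suz12, which turned their order, and the higher-scoring 50% put 7.10% and 4.44% there. The following were chosen after seeing the data. The ratio on chromosome X was 2.92 with the higher-scoring 50%. The excess of lost over kept peaks at Suz12 in the top score class, 3.59 percentage points, was 4.37, 2.13 and 5.27 with the summit rule, the 50% overlap and the higher-scoring 50%. Leaving out chromosomes 1 and 8, 4 or X was also added then. The cause of shifts not set by construction was not tested, and depth limits what can be called lost to what a library of about 3 background tags per fragment length can show.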
